A study of Mus musculus with 6 samples.

Results

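The ADAMTS genes that encode proteoglycan-cleaving proteases were followed in the dorsal skin of tight skin (TSK) and wild-type (WT) mice. The group was selected by gene name and comprises Adamts1, Adamts4, Adamts5, Adamts8, Adamts9, Adamts15 and Adamts20, which are 7 of the 55291 genes in the deposited table and 7 of its 19 ADAMTS protease genes. It was chosen with the TSK and WT comparison of these libraries already known, so the fold changes of the 7 genes are given as a description, and the calls that a test made among them support nothing. In TSK mice, part of Fbn1 is duplicated within the gene, which encodes fibrillin 1, the main protein of microfibrils. They are heterozygous, since homozygous embryos die, and were kept by backcrossing to C57BL/6. Both groups were C57BL/6 by label, with a labelled age of 6 to 8 weeks (8 weeks in the study's methods), and dorsal skin was taken after shaving. No treatment is named for either group. The controls were WT littermates. RNA of 3 TSK and 3 WT mice was sequenced as 1 library per mouse, so that p-values measure the spread between these mice only.

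ADAMTS proteases are secreted zinc metalloproteases. They carry a propeptide that furin-like convertases remove, a catalytic domain and thrombospondin type 1 repeats that help to hold them in the extracellular matrix. The proteoglycan-cleaving branch cuts the core proteins of versican and aggrecan, large chondroitin sulfate proteoglycans that bind hyaluronan. In skin, versican belongs to the provisional matrix of the dermis and to the dermal papilla of the hair follicle, and its cleavage is part of tissue remodelling.

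The feature that makes these proteins proteases is the zinc-binding site of the catalytic domain. The 36 coding bases of that site are shown for each gene, 5′ to 3′ on the coding strand, because they show what the 7 genes share and where they differ. They were read from the principal GENCODE M21 transcript of each gene (GRCm38, the mm10 build). Capitals mark the codons of the 3 zinc-binding histidines.
Adamts15: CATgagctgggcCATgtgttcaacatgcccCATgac
Adamts8: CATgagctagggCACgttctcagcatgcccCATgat
Adamts1: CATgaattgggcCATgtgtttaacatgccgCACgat
Adamts5: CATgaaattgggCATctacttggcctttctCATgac
Adamts4: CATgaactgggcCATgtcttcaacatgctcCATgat
Adamts9: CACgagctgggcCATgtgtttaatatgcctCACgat
Adamts20: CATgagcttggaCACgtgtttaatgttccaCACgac

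Every one of the 7 genes held 1 such site, and in every gene it lay across an exon junction. The stretch of Adamts15 spanned exons 2 and 3 at chr9:30911252-30911690 on the minus strand, intron included. That of Adamts8 spanned exons 3 and 4 at chr9:30952721-30953381 on the plus strand. The others lay at chr16:85799188-85799545 (Adamts1, minus), chr16:85878012-85887826 (Adamts5, minus), chr1:171253210-171253918 (Adamts4, plus), chr6:92905282-92908493 (Adamts9, minus) and chr15:94353675-94355296 (Adamts20, minus). The 7 stretches encode 5 different products of 12 residues. Adamts1, Adamts9 and Adamts15 encode the same product, although the bases of Adamts15 differ from each of the other two at 6 places. Adamts5 was the farthest from the rest, with 5 to 6 residues and 13 to 16 bases different from each of the other 6 genes.

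Over the whole translated protein, Adamts15 was closest to Adamts1, with 54.1% identity over 889 aligned residues, and then to Adamts8 with 50.3% over 849. The highest identity of any pair, 55.5%, was between Adamts9 and Adamts20, whose proteins of 1931 and 1906 residues are much longer than the others. Those ranged from 845 residues for Adamts4 to 968 for Adamts1. Among the 7 genes are 2 neighbouring pairs. Adamts8 (chromosome 9, 30942562 to 30963838) and Adamts15 (chromosome 9, 30899155 to 30922452) lie 20109 bases apart on opposite strands, with no annotated gene between them. Adamts5 (chromosome 16, 85856173 to 85901828) and Adamts1 (chromosome 16, 85793827 to 85803113) lie 53059 bases apart on the same strand, with no coding gene between them.

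Library totals ranged from 17561453 to 19219814 counts, and the totals of the groups overlapped. Libraries of a group differed by more than sampling noise (chi-square over its degrees of freedom at least 8.02 for any pair). Fbn1, the mutated gene, had 262 to 289 CPM (counts scaled to 1000000 per library) in WT and 1538 to 2284 CPM in TSK. Reads over the duplicated part of the gene were not examined, so the genotype labels were not tested. The labels give all mice as female, whereas the study's methods give males. The Y-linked genes Ddx3y and Eif2s3y were at 56.7 to 72.8 and 27.0 to 39.0 CPM in the 6 libraries and Xist at 2.57 to 4.58 CPM, so the libraries went against the label in both groups alike. Keratinocyte and fibroblast markers of skin were present in every library. Genes of adult skeletal muscle were present as well, and 8 of them together took 148593 to 215778 CPM in WT and 127690 to 146219 CPM in TSK. The 8 fibroblast markers summed to 6383, 8581 and 9696 CPM in the WT mice and to 20950, 20517 and 47518 CPM in the TSK mice. Of the 8, 1 gene, Dpt, was called higher by edgeR (adjusted p below 0.05), against 2.71% of all tested genes.

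Adamts15, Adamts5, Adamts9 and Adamts8 were higher in TSK skin, from 2.69-fold for Adamts9 to 15.1-fold for Adamts8 in the mean CPM. Adamts1, Adamts4 and Adamts20 stayed within a ratio of 0.861 to 1.28 and their groups overlapped. These fold values are on deposited CPM and carry an upward shift of the whole table. Scaled by library size only, the middle gene of the table had a log2 fold change of 0.25, against -0.03 with TMM scaling. With TMM scaling the log2 fold changes ran from 1.17 for Adamts9 to 3.59 for Adamts8. They were 0.08 for Adamts1, -0.49 for Adamts4 and -0.45 for Adamts20. With edgeR's quasi-likelihood test over all 19971 genes kept by the filter on low counts, 4 of the 7 genes were called higher at an adjusted p below 0.05, and none lower. In the same comparison 2.71% of all tested genes were called higher and 0.681% lower. The groups did not overlap on scaled CPM in the same 4 genes, all higher in TSK, against a background of 14.1% of genes higher without overlap and 10.6% lower. Deposited CPM set apart the same 4 genes, with a background of 29.1% higher and 2.58% lower. Adamts15 and Adamts5 also passed the study's thresholds, a 2.5-fold change at an adjusted p under 0.01, which 0.255% of all genes passed upward. With DESeq2, the tool of the study, Adamts8 passed them too, making 3 genes, against 1.42% of the 21722 genes that DESeq2 tested. The 7 genes were picked on this contrast, so nothing is read from these counts. Left out in turn, WT 3 changed them most. Without it 2 genes were called, Adamts15 and Adamts5, and 0 passed the study's thresholds. Without TSK 3 Adamts8 was not called, and 3 genes were. Over all genes, 45 of 20665 were called higher without WT 3 and 322 of 20317 without TSK 3, against 542 of 19971 with all libraries. Without WT 1, WT 2, TSK 2 or TSK 3, 1 gene passed the study's thresholds. In whole skin, more cells that express a gene and more RNA of it per cell cannot be told apart.

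**Figure D1:**
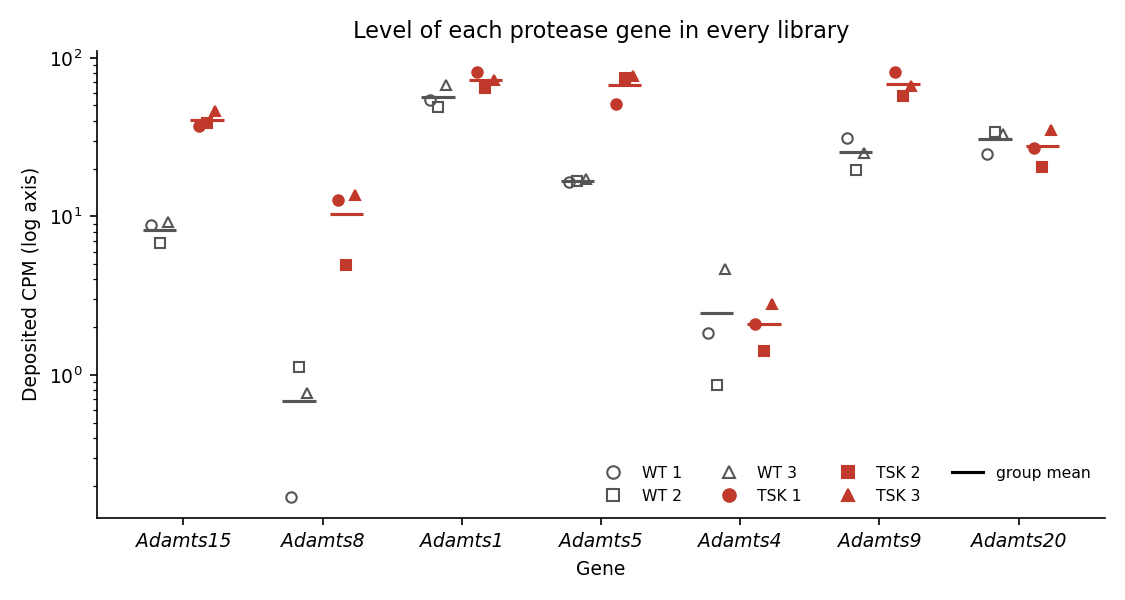
Deposited CPM on a log axis (vertical) of the 7 proteoglycan-cleaving ADAMTS genes (horizontal) in every library. Open grey symbols are WT 1 to 3, filled red symbols TSK 1 to 3 and bars the group means. The TSK libraries lie above all WT libraries for Adamts15, Adamts8, Adamts5 and Adamts9, with Adamts15 at 36.9 to 46.3 CPM in TSK and 6.76 to 9.25 CPM in WT, and the groups overlap for the other genes.

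Adamts15 encodes a versican-cleaving protease that is less studied than its relatives. WT 1, WT 2 and WT 3 had 8.77, 6.76 and 9.25 CPM, while TSK 1, TSK 2 and TSK 3 had 36.9, 39.0 and 46.3 CPM. Each TSK library was thus well above the highest WT library, and the spread within groups was small, at 15.98% of the mean in WT and 12.1% in TSK. The mean CPM was 8.26 ± 1.32 in WT and 40.7 ± 4.93 in TSK (SD, n = 3), a ratio of 4.93. After TMM scaling, a correction for differences in library makeup, the log2 fold change (TSK minus WT) was 2.03 (SE 0.14), the smallest standard error among the 7 genes. It stayed between 1.94 and 2.15 when any 1 library was left out. In estimated counts, WT libraries held 127 to 168 and TSK libraries 671 to 873. No stretch of at least 50 bases at 95% identity or more was shared with another gene, yet the deposited count was whole in 0 of the 6 libraries, and how its reads were shared out was not tested.

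Adamts8, the neighbour of Adamts15 on the opposite strand, encodes a protease that was described as an inhibitor of new vessel growth. The WT libraries had 0.171, 1.12 and 0.770 CPM (mice 1, 2 and 3), the TSK libraries 12.6, 4.94 and 13.6 CPM. The groups did not overlap, but WT 1 and TSK 2 were each far below the other libraries of their group. In estimated counts the WT libraries held 3, 21 and 14 and the TSK libraries 229, 95 and 257. The mean CPM was 0.686 ± 0.479 and 10.4 ± 4.74 (SD, n = 3). The log2 fold change of 3.59 (SE 0.59) was the highest of the 7 genes and also the least precise, ranging from 3.11 without WT 1 to 4.22 without WT 2. It kept its sign throughout, and the call was lost without WT 3 or TSK 3. An antisense gene, Gm29724, overlaps Adamts8 and had at most 0.342 CPM in any library. The strand setting of the counting is not given in the sources used here, so reads of the overlap may come from either gene.

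Adamts5, the main aggrecanase of mouse cartilage and a versican-cleaving protease of dermis and tendon, was at 16.6, 16.6 and 17.1 CPM in the WT mice and at 51.3, 74.2 and 76.6 CPM in the TSK mice, in the order 1 to 3. The WT mice were nearly alike, with a spread of 1.73% of the mean, and the TSK mice varied more, with 20.7%. The mean CPM was 16.8 ± 0.291 in WT and 67.4 ± 13.9 in TSK (SD, n = 3), a ratio of 4.02. The log2 fold change was 1.72 (SE 0.17), and 1.63 to 1.86 with any 1 library left out.

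Its neighbour Adamts1, a protease best known from ovulation and also induced by inflammation, did not follow it. In the same order, Adamts1 was at 54.5, 48.9 and 67.2 CPM in the WT mice and at 81.3, 64.0 and 72.7 CPM in the TSK mice. The lowest TSK library was below the highest WT library. The log2 fold change was 0.08 (SE 0.17), near the median of all tested genes, -0.03, and its sign turned without WT 1 or TSK 1. The ratio of Adamts5 to Adamts1 CPM was accordingly 0.304, 0.34 and 0.254 in the WT mice and 0.631, 1.16 and 1.05 in the TSK mice, without overlap.

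Adamts4, the other aggrecanase that is induced by inflammatory signals, was low throughout. The WT mice had 1.84, 0.861 and 4.64 CPM and the TSK mice 2.11, 1.42 and 2.79 CPM. All TSK libraries lay within the WT range. The spread in WT was 80.1% of the mean, at 16.2 to 84.3 estimated counts per library, and the log2 fold change of -0.49 (SE 0.55) became 0.43 without WT 3.

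Adamts9 and Adamts20 form the long pair, whose proteins end in a domain shared with the nematode protease GON-1. Adamts9, which acts on versican in many developing tissues and in endothelial cells, was at 31.3, 19.6 and 25.2 CPM in the WT mice and at 80.9, 57.4 and 66.2 CPM in the TSK mice. No library of one group reached the other. The mean CPM was 25.4 ± 5.89 and 68.2 ± 11.9 (SD, n = 3), and the log2 fold change was 1.17 (SE 0.17). With any 1 library left out it was 0.998 to 1.29, and without WT 3 the gene was not called. Adamts9 shares stretches with 38 other genes, the longest of 1217 bases with A730049H05Rik on the other strand. That gene had at most 0.312 CPM, and the other overlapping genes Gm15737 and 9530026P05Rik at most 1.51 and 5.23 CPM.

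Adamts20, known from the belted coat of mice that lack it, through its role in the survival of pigment cell precursors, was at 24.7, 34.2 and 32.9 CPM in the WT mice and at 27.2, 20.4 and 35.3 CPM in the TSK mice. The groups overlapped over most of their range. The log2 fold change was -0.45 (SE 0.24), and -0.64 to -0.27 with any 1 library left out. The ratio of Adamts9 to Adamts20 CPM was 1.27, 0.573 and 0.766 in the WT mice and 2.98, 2.81 and 1.88 in the TSK mice, without overlap. For the neighbours Adamts15 and Adamts8 the groups overlapped. The ratio of Adamts15 to Adamts8 CPM ranged from 6.05 to 51.3 in WT and from 2.93 to 7.9 in TSK. How often such ratios separate the groups among other gene pairs was not tested.

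**Figure D2:**
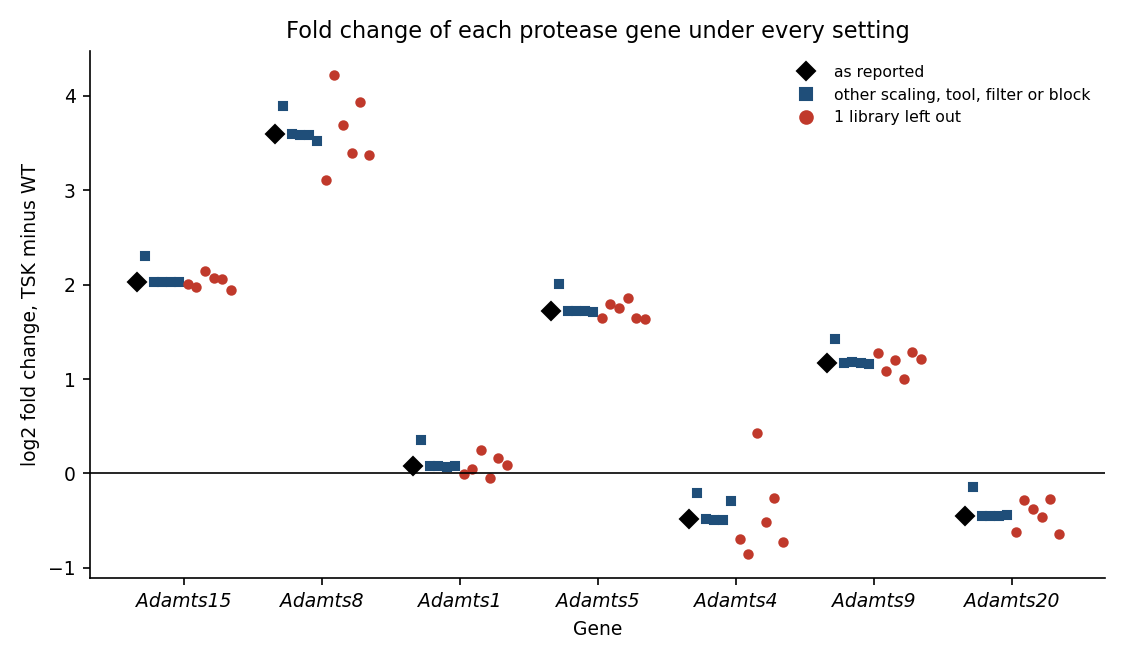
Log2 fold change, TSK minus WT (vertical), of the 7 genes (horizontal). Black diamonds are the values as reported, blue squares those with another scaling, tool, filter or a replicate block, and red circles those with 1 library left out. Adamts15, Adamts8, Adamts5 and Adamts9 stay above 0 under every setting, Adamts20 stays below 0, and Adamts1 and Adamts4 cross 0.

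To compare genes with each other, CPM was divided by the length of the principal transcript in kilobases. In WT skin Adamts1 was highest, at 11.6 ± 1.93 CPM per kilobase (SD, n = 3), followed by Adamts20 at 5.08, Adamts9 at 3.16, Adamts5 at 1.55, Adamts15 at 1.39, Adamts4 at 0.558 and Adamts8 at 0.189. The ranges of Adamts5 and Adamts15 overlapped, as did those of Adamts4 and Adamts8. The other neighbours in this order did not. In TSK skin Adamts1 was again highest, at 14.9 ± 1.77 CPM per kilobase, and Adamts4 lowest at 0.48. Between them lay Adamts9 at 8.51, Adamts15 at 6.87, Adamts5 at 6.24, Adamts20 at 4.58 and Adamts8 at 2.86, each overlapping its neighbour among these 5. Adamts15 and Adamts5 were thus below Adamts20 in WT and above it in TSK on this scale. Divided by the length of all annotated exons instead, Adamts5 came second in TSK, at 6.24, before Adamts9 at 4.53 and Adamts15 at 3.93.

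The 7 genes summed to 22.7, 21.3 and 26.8 CPM per kilobase in the WT mice and to 46.2, 38.8 and 48.3 in the TSK mice. Adamts1 made up 49.2% ± 2.22 of this sum in WT and 33.6% ± 2.62 in TSK (SD, n = 3). Adamts15 made up 5.9% ± 0.591 in WT and 15.5% ± 1.83 in TSK, and Adamts5 6.64% ± 0.667 and 14.2% ± 3.73. The share of Adamts20 was 21.7% ± 4.41 in WT and 10.2% ± 1.73 in TSK. These shares describe RNA and not protein or protease activity.

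**Figure D3:**
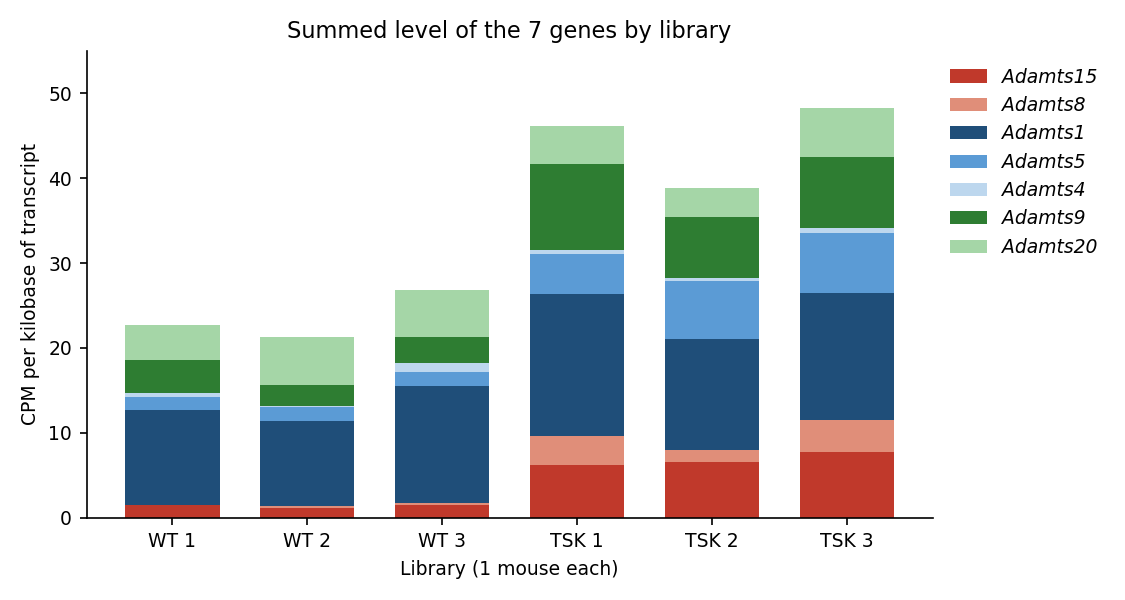
Summed level of the 7 genes in CPM per kilobase of transcript (vertical, from 0) in each library (horizontal), with the contribution of each gene as a stacked segment. The TSK bars reach 38.8 to 48.3 and the WT bars 21.3 to 26.8, with larger red (Adamts15, Adamts8) segments in TSK.

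The summed fibroblast level did not overlap between the groups, although 7 of its 8 genes were not called, and each gene was therefore set against the summed CPM of the 8 fibroblast markers, most of which came from the collagen genes Col1a1, Col1a2 and Col3a1. Per 1000 CPM of that sum, Adamts15 was 1.37, 0.788 and 0.954 in the WT mice and 1.76, 1.9 and 0.974 in the TSK mice, so that the groups overlapped. Adamts5, Adamts9 and Adamts4 overlapped as well. Adamts8 remained higher without overlap, at 0.0268 to 0.13 in WT and 0.241 to 0.601 in TSK. Adamts1 was lower without overlap on this scale, at 5.7 to 8.54 in WT and 1.53 to 3.88 in TSK, and so was Adamts20, at 3.39 to 3.98 and 0.742 to 1.3. The sum itself was 3.61-fold higher in TSK by mean CPM, so a gene at an unchanged level is lower on this scale. How many of all genes separate the groups on it was not tested. TSK 3, with the highest collagen level, gave the lowest value of the TSK group in every gene but Adamts8. The part of fibroblast content in the levels of the 7 genes was not tested.

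**Figure D4:**
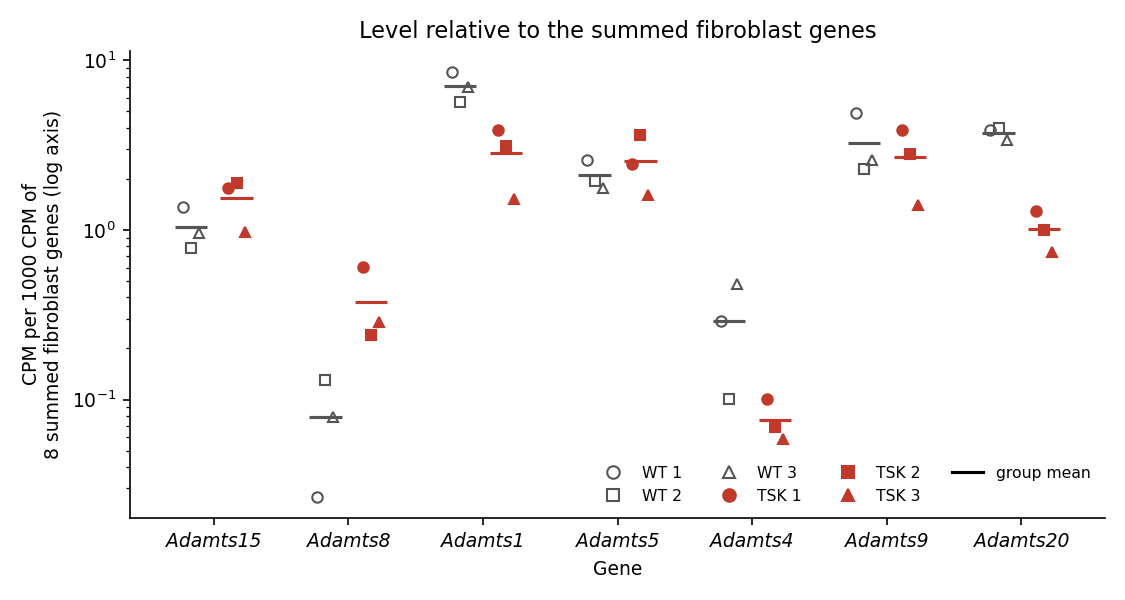
CPM of each gene per 1000 CPM of the 8 summed fibroblast genes, on a log axis (vertical), by gene (horizontal). Open grey symbols are WT 1 to 3, filled red symbols TSK 1 to 3 and bars the group means. Adamts8 lies higher in all TSK libraries, Adamts1 and Adamts20 lie lower in all TSK libraries, and the groups overlap for the others. A gene at an unchanged level lies lower in TSK on this scale.

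Calls among the markers of further cell types ranged from none to 4 per list, where 2.71% of all tested genes were called higher and 0.681% lower. Of 8 endothelial genes 2 were called higher, and their summed CPM was 141 to 168 in WT and 260 to 426 in TSK. Of 8 adipocyte genes 2 were called higher, with sums of 510 to 778 and 896 to 4077 CPM, TSK 2 being highest. Of 7 hair follicle genes 4 were called higher, with sums of 7.12 to 16.4 and 32.6 to 39.0 CPM. Among smooth muscle and pericyte genes 1 of 8 was called higher, and so was 1 of 8 keratinocyte genes, and none of 8 macrophage, 8 skeletal muscle or 3 tested cartilage genes. The sums were 2082 to 2558 CPM in WT and 1701 to 2025 in TSK for the smooth muscle list, most of it from Des, which skeletal muscle also expresses, while 6 of the 8 genes had positive log2 fold changes. They were 4805 to 9081 and 5780 to 9372 for keratinocytes, 214 to 342 and 407 to 1113 for macrophages, and 43.9 to 85.9 and 63.3 to 93.1 for cartilage, of which Matn1 was at 0 in all libraries. No gene of these lists was called lower. Their part in the levels of the 7 genes was not tested.

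The genes with the most similar profile were sought among 17606 genes of at least 1 CPM on average, by the root mean square difference of centred log2 CPM over the 6 libraries. This measure includes the difference between the groups, and whether genes vary together within a group was not tested. Closest to Adamts15 were Plppr3, a phospholipid phosphatase-related gene, at 0.173, Mfap2, a microfibril-associated glycoprotein, at 0.215, and Slc2a13, a myo-inositol transporter, at 0.22. Their log2 fold changes, 2.03, 1.94 and 2.02, were near the 2.03 of Adamts15. Adamts5 was 11th in that order, at 0.243, while Adamts9 was 220th. The neighbouring gene Adamts8 differed from Adamts15 by 1.15, which placed it 13099th from Adamts15, while Adamts15 was 49th and Adamts5 110th in the order from Adamts8. Closest to Adamts5 were Plat, which encodes tissue plasminogen activator, at 0.0938, the transcription factor gene Ebf1 at 0.122 and Dact1, a Wnt pathway modulator, at 0.125. Adamts9 was nearest to Anxa9 at 0.113, Ly6g6c at 0.118 and Rab11fip1 at 0.12. Nothing followed Adamts8 closely, the nearest being Sfrp2, a secreted Wnt modulator, at 0.691, Islr2 at 0.798 and Pi16 at 0.829.

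Among the 12 other ADAMTS protease genes, 11 were tested and 1 was called higher in TSK, against 2.71% of all tested genes. This was Adamts10, a protease linked to fibrillin microfibrils, which rose from 16.6 ± 0.669 to 45.5 ± 13.3 CPM (SD, n = 3) a log2 difference of 1.16 with an SE of 0.20 (adjusted p = 0.0236 in edgeR). Without WT 3 it was not called (adjusted p = 0.0995, range over all alternatives 2.06e-05 to 0.0995). Adamts2, which removes the amino propeptide of fibrillar procollagens, was at 30.8, 52.0 and 52.5 CPM in the WT mice and at 87.2, 117 and 203 CPM in the TSK mice. The groups did not overlap, but the test did not pass (log2 difference 1.27 with an SE of 0.35, adjusted p = 0.0863 in edgeR). Of 11 alternatives 4 called it, DESeq2 among them, with adjusted p from 0.00329 to 0.198. The median log2 fold change of the 11 genes was 1.06, against 1.17 for the 7 proteoglycan-cleaving genes and -0.03 for all tested genes. On TMM-scaled CPM all TSK libraries were above all WT libraries in 7 of the 11 and below them in 1, against 14.1% and 10.6% of all tested genes. On deposited CPM the counts were 8 and 0, against 29.1% and 2.58%. The edgeR count of genes called higher was 3 without WT 2 and 0 without WT 3. Over all genes this count was 226 of 20656 and 45 of 20665 in these fits, against 542 of 19971 with all libraries. With all libraries, DESeq2 called 5 of them higher, against 5.20% of the genes it tested, Adamts2, Adamts10, Adamts12, Adamts16 and Adamts19, of which the last 3 are named after their values were seen.

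ADAMTS-like proteins share the ancillary domains of the family but have no protease domain. None of the 7 genes, Thsd4 and Papln included, was called higher or lower by edgeR at an adjusted p below 0.05. At an unadjusted p below 0.05, 2 were higher, where 12.1% of all tested genes were higher and 7.90% lower. DESeq2 called 1 higher, against 5.20% of the genes it tested. This was Adamtsl1, a name chosen after its values were seen. Their log2 fold changes ranged from 0.02 to 1.07, with a median of 0.24.

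Of 14 genes for the substrates and their matrix partners, 10 were tested and none was called by edgeR, although at p below 0.05 without adjustment 3 were higher and 1 lower (12.1% and 7.90% over all tested genes). DESeq2 called 3 higher (5.20% over all). Vcan, which encodes versican itself, had 40.2, 31.1 and 49.5 CPM in the WT mice and 61.7, 74.1 and 92.7 CPM in the TSK mice. All TSK libraries were above all WT libraries, and the log2 fold change of 0.64 (SE 0.19) did not pass in edgeR (adjusted p = 0.111). In DESeq2 it passed (adjusted p = 0.0416), and its adjusted p ranged from 0.0255 to 0.273 over the alternatives. Acan, the gene of aggrecan, was at 0.156 to 0.586 CPM and too low to be tested. The genes called by DESeq2 were Vcan and the fibulin genes Fbln1 and Fbln2, the latter pair named after their values were seen. The median log2 fold change of the 10 genes was 0.38.

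Of 13 genes for inhibitors, maturation and uptake of these proteases, 12 were tested and 3 were called higher by edgeR, against 2.71% of all tested genes. DESeq2 called 6, against 5.20% of its tested genes: these 3, Timp3 and the convertase genes Pcsk5 and Pcsk6, the last pair named after their values were seen. Fn1, which encodes fibronectin, a matrix protein that ADAMTS proteases can bind, rose by 1.76 on the log2 scale (SE 0.26), from 278 ± 13.1 CPM in WT to 1159 ± 404 CPM in TSK (SD, n = 3, adjusted p = 0.0148 in edgeR). Timp2, a metalloprotease inhibitor that acts mainly on matrix metalloproteases, rose by 1.27 (SE 0.26), from 115 ± 6.04 to 339 ± 134 CPM (adjusted p = 0.0369 in edgeR). Lrp1, the endocytic receptor that clears several ADAMTS proteases from the matrix, rose by 0.98 (SE 0.21), from 378 ± 14.5 to 911 ± 256 CPM (adjusted p = 0.0475 in edgeR).

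Timp3, the main tissue inhibitor of the aggrecanases, had 172, 166 and 137 CPM in the WT mice and 245, 364 and 323 CPM in the TSK mice. Its groups did not overlap, and its log2 fold change of 0.69 (SE 0.18) did not pass in edgeR (adjusted p = 0.0757). In DESeq2 it passed (adjusted p = 0.00483), and the range over the alternatives was 0.00483 to 0.259. In 9 of the 12 genes all TSK libraries were above all WT libraries on either CPM scale (14.1% of all tested genes on TMM-scaled and 29.1% on deposited CPM), and the median log2 fold change was 0.72. Calls changed when single libraries were left out, in this list and over all genes. Of the 12 genes none was called without WT 3, and 1 without WT 2, TSK 2 or TSK 3. Over all genes, 542 were called higher with all libraries and 45 without WT 3. The number was 226 without WT 2, 321 without TSK 2 and 322 without TSK 3, but 713 without WT 1 and 433 without TSK 1. Timp2 and Lrp1 each lost their call in 5 of the 6 fits with 1 library left out, all but that without TSK 1. Their adjusted p in edgeR and DESeq2 ranged over the alternatives from 3.39e-05 to 0.131 for Timp2 and from 4.2e-05 to 0.177 for Lrp1. Fn1 lost its call without WT 3 alone (adjusted p = 0.0831 in edgeR, range over the alternatives 1.17e-11 to 0.0831). Over the 4 lists and the 7 genes, edgeR called 0 genes lower in TSK, with 2 lower at an unadjusted p below 0.05 and 0 called lower by DESeq2, which called 1.87% of all its tested genes lower.

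**Figure D5:**
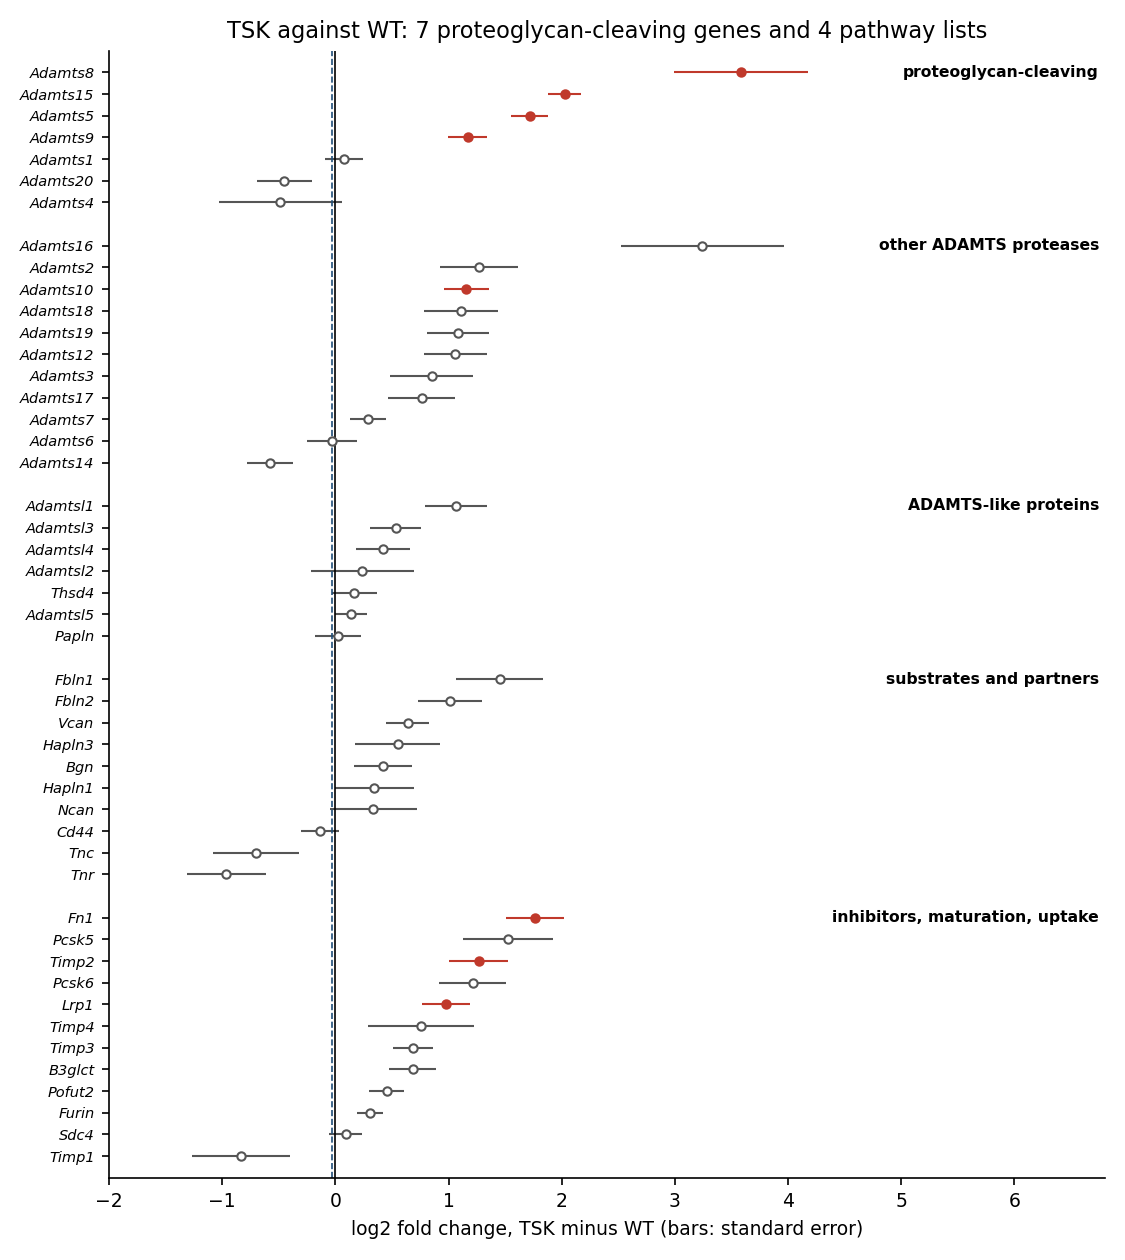
Log2 fold change, TSK minus WT, with its standard error (horizontal) for the 7 proteoglycan-cleaving genes and the tested genes of 4 pathway lists (vertical). Filled red points have an edgeR adjusted p below 0.05, open points do not, and the dashed line is the median of all tested genes, -0.03. Most points of the other ADAMTS proteases and of the inhibitor list lie to the right of the dashed line, and the ADAMTS-like proteins lie between 0.02 and 1.07.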

How the data were processed

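Stranded total RNA libraries depleted of ribosomal RNA were sequenced as single reads of 50 bases. The authors demultiplexed with bcl2fastq 2.19.1.403, aligned with STAR to mm10 and quantified genes against Ensembl release 100 in Partek Flow 11.0. The deposited count table held estimated counts (43.3% to 45.4% of non-zero values whole within 0.001), where whole counts had been assumed when the tests were planned. They were rounded to whole numbers before testing. The deposited CPM values, counts scaled by the authors to 1000000 per library, gave the levels. All 6 columns belonged to a labelled mouse.

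TSK was compared with WT by edgeR 4.0.16 (R 4.3.3) with quasi-likelihood fits, TMM scaling (factors 0.823 to 1.13), filterByExpr and Benjamini-Hochberg adjustment over 19971 genes. DESeq2 1.42.0, the tool of the study, was an alternative. The test was checked on simulated data. Standard errors were the fold change over the square root of F. Log2 CPM used a prior count of 2. Proteins were translated from GENCODE M21 and compared by global alignment, and shared stretches were sought with BLAST 2.17.0.

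The 7 genes and the lists were chosen with earlier results of these data known. Named by rule were the 7 genes, Fbn1, up to 4 genes per pathway list with the greatest change at an adjusted p below 0.05, Vcan, Acan, Timp3, Fn1, Lrp1 and Adamts2, and the 3 nearest profiles of each called gene. Alternatives were other scalings, no filter, the replicate number as a block and the loss of each library in turn. The length of all annotated exons, and the named list genes under each alternative, were added after seeing the data. Krt85 was not used here.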

Additional observations from a re-analysis of the deposited data

How the results depend on the processing

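The log2 fold changes of the 7 genes kept their direction and their side of the threshold in 71 of 77 alternative fits. In 3 a call was lost (Adamts8 without WT 3 or TSK 3, Adamts9 without WT 3), and in 3 the sign turned, for Adamts1 (-0.01 without WT 1, -0.043 without TSK 1, range with 1 library left out -0.043 to 0.25) and Adamts4 (0.43 without WT 3, range -0.85 to 0.43), neither of them called. Genes called higher numbered 4 of the 7 under every alternative that kept all libraries. With 1 library left out, 2 to 4 of the 7 were called, 0 to 2 passed the study's thresholds, 0 to 3 other ADAMTS proteases were called, 0 to 4 inhibitor, maturation and uptake genes, 0 ADAMTS-like genes, 0 substrate and partner genes, and 0 listed genes lower. Scaling by library size only moved the median of all genes from -0.03 to 0.25, and that of the 7 genes from 1.17 to 1.43. It put 4 of the 7 genes past the study's thresholds and called 6 other ADAMTS proteases, 2 ADAMTS-like genes, 3 substrate and partner genes and 9 inhibitor, maturation and uptake genes. Over all genes it called 1685 higher and 93 lower, against 542 and 136 with TMM, and without WT 1 the split was 713 and 547. DESeq2 called 5, 1, 3 and 6 genes of these 4 lists in the same order, edgeR without a filter on low counts 5, 1, 2 and 6, and edgeR with the size factors of DESeq2 called 2 other ADAMTS proteases. Genes called over the whole table numbered 678 in the reported fit, 1778 with library size only, 1535 with DESeq2, 1387 without a filter, 1260 without WT 1, 287 without WT 2, 60 without WT 3, 381 without TSK 2 and 387 without TSK 3. The causes were not tested. Same-numbered libraries did not deviate together (correlations 0.0112, 0.167 and -0.0938), so the numbers were not taken as pairs. A replicate block called 794 genes, with 3 other ADAMTS proteases, 1 ADAMTS-like gene and 3 substrate and partner genes, and 4 of the 7 genes. Lrp1 lost its call under the block (adjusted p = 0.0555) and Vcan (0.0421) and Adamts2 (0.0181) gained one. The value of Adamts8 in WT rests on 3 to 21 counts per library.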
